A study of Homo sapiens with 6 samples.

Results

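The globin genes are the 10 genes of the alpha cluster (HBZ, HBM, HBA2, HBA1 and HBQ1) and the beta cluster (HBE1, HBG2, HBG1, HBD and HBB), picked by gene symbol from the 19330 transcripts for which ribosome footprints were counted. K562 is a human chronic myelogenous leukemia line with erythroid traits. Per the labels, the cells were transduced by lentivirus with the CRISPR/Cas9 vector pLentiCRISPRv2, carrying either a guide against N6AMT1 (sgN6AMT1) or control guides against OR11A1 and OR2M49 (sgCtrl), were held in puromycin for 48 h and were analysed 10 days after infection. Both groups therefore carried Cas9, a guide and puromycin resistance, and isolation of clones is not described. There were 3 libraries of each group. The study's legends describe separate lentiviral infections for them, and the sources used here do not tell which control guide went into which sgCtrl library. The study's methods name OR2M4 where the labels have OR2M49. They also list EGFP as a control target and speak of N6AMT1 guides in the plural.

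Hemoglobin is a tetramer of alpha-like and beta-like chains, each holding a haem. In human development the embryonic chains zeta (HBZ) and epsilon (HBE1) are replaced by the alpha chain (HBA1 and HBA2) and by the fetal gamma chains (HBG1 and HBG2), and after birth the gamma chains give way to the adult beta chain (HBB) and a little delta chain (HBD). K562 cells are known for making embryonic and fetal globins with little beta globin. N6AMT1 methylates eRF1, the factor that releases the finished chain from the ribosome, so that stop codons are of interest in these cells. Ribosome profiling (Ribo-Seq) counts the mRNA stretches shielded by ribosomes, and a footprint count rises with the amount of an mRNA as well as with its translation. RNA-Seq was not used here, so these 2 sources are not separated, and in bulk libraries fewer cells making a globin cannot be told apart from less globin RNA per cell.

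In sgN6AMT1 libraries, footprints rose on HBE1 by 39.6% and on HBA1 and HBA2 together by 27.0%, whereas HBZ fell by 17.2%, HBD fell by 30.2% and HBB fell by 43.0%. The fetal genes HBG1 and HBG2, the most abundant globins in both groups, differed by -0.71% when summed and did not pass the test. Thus one embryonic chain was higher (epsilon) and the other lower (zeta). HBQ1 was low and did not pass the test, and HBM had no footprint in any library.

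The coding sequences (CDS) around the stop codons are shown because N6AMT1 acts on a release factor and the members do not all have the same stop codon. Each line below holds the last 15 bases before the stop codon in lower case and, in capitals, the stop codon with the base after it, read from the GENCODE 44 transcripts (GRCh38).
HBZ: accgagaagtaccgcTGAG
HBM: accgaaaaataccgcTGAG
HBA2 and HBA1: acctccaaataccgtTAAG
HBQ1: gtttccgagtaccgcTGAA
HBE1: gcccataagtaccacTGAG
HBG2 and HBG1: tcctccagataccacTGAG
HBD: gctcacaagtaccatTGAG
HBB: gcccacaagtatcacTAAG

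Among the genes with TAA, HBA1 and HBA2 rose and HBB fell. Among those with TGA, HBE1 rose, HBZ and HBD fell, and HBG1, HBG2 and HBQ1 did not pass the test. Both stop codons were thus found on globins that rose and on globins that fell, and an effect of the stop codon was not tested. Of the 9109 tested genes with a placed CDS, 29.7% ended in TAA and 49.2% in TGA, and TAAG and TGAG were found in 6.69% and 17.5%. The median log2 fold change was -0.01 for genes ending in TAA, 0.01 for TGA and 0.03 for TAG. Around the start codon, from the base 3 before ATG to the base after it, HBA1, HBA2, HBD and HBB all carry ACCATGG (3.56% of the same genes), HBG1 and HBG2 carry GCCATGG (8.65%), HBE1 carries ATCATGG (1.55%) and HBZ carries GCCATGT (1.98%). HBA1 and HBA2 rose while HBD and HBB fell, with the same 7 bases. These letters were matched in the listed window only and describe no effect.

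The pairs HBA1 and HBA2, and HBG1 and HBG2, are near-identical copies, which limits what short footprints can assign. The CDS of HBA1 and HBA2 are identical, so that all of their 30-base windows are shared. HBG1 and HBG2 differ at 2 CDS positions, C227T in codon 76 and C410G in codon 137, with the HBG1 base first and positions counted from 1 at the A of ATG, and 85.5% of their 30-base windows are shared. The stretches around both positions are shown because only footprints that cover one of them can tell the gamma genes apart, with the differing base in capitals.
HBG1 at 227: tgggagatgccaCaaagcacctgga
HBG2 at 227: tgggagatgccaTaaagcacctgga
HBG1 at 410: agatggtgactgCagtggccagtgc
HBG2 at 410: agatggtgactgGagtggccagtgc

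HBA1 held 49.3% to 51.8% of the counts of its pair, and HBG1 held 48.8% to 49.5% of those of its pair. The mean share of HBA1 was 50.4% ± 1.26 in sgCtrl and 51.3% ± 0.51 in sgN6AMT1, and that of HBG1 was 49.1% ± 0.41 and 49.0% ± 0.11 (SD, n = 3 each), with overlapping groups. With 3 libraries a group an exact permutation test of such a share cannot fall below p = 0.1. A split near 50% is also what random assignment of shared reads gives, so that the copies are reported singly as uncertain and the sums are preferred. HBD and HBB share 92.8% of CDS bases, and 21.7% of the HBD windows and 21.2% of the HBB windows occur exactly in another globin. HBZ (0.25%) and HBE1 (5.54%) share few windows exactly, and HBQ1 shares none. Within 2 mismatches of another globin lie 63.6% of the HBD windows, 62.2% of the HBB windows, 21.0% of the HBE1 windows and 2.75% of the HBZ windows. The part of misassigned reads in the HBE1 counts was not tested. No window of any member was found in the transcript of a gene outside the list.

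The alpha cluster lies on the plus strand of chromosome 16, where the coding bases run from 152910 to 181105 (28.2 kb, GRCh38). In order, the coding exons and introns of HBZ span 152910 to 154397, those of HBM 165998 to 166705, HBA2 172913 to 173597, HBA1 176717 to 177408 and HBQ1 180487 to 181105. The beta cluster lies on the minus strand of chromosome 11 from 5225601 to 5269890 (44.3 kb). There, HBE1 spans 5268472 to 5269890, HBG2 5253280 to 5254728, HBG1 5248362 to 5249804, HBD 5232967 to 5234433 and HBB 5225601 to 5227021. The listed transcripts of HBG2 and HBD were placed through the canonical transcript of the same symbol. The CDS is 426 to 444 bases long, against a median of 1398 over the tested genes. GC content is 64.8% to 68.1% in the alpha cluster and 52.9% to 56.1% in the beta cluster, against a median of 51.0%.

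Libraries held 1821356 to 2969736 counts. All globins together made up 2.85% ± 0.096 of the counts in sgCtrl and 3.15% ± 0.058 in sgN6AMT1 (SD, n = 3 each), and the groups did not overlap. Levels are given as CPM, the counts relative to the TMM-scaled total of their library, unless named otherwise. The shares of all globins are of unscaled totals, and their difference between groups depends on that choice. The TMM factors were 0.979 to 0.984 in sgCtrl and 1.017 to 1.022 in sgN6AMT1. Of the 19330 transcripts 9202 had enough counts to be tested by edgeR's quasi-likelihood test, and 2473 of these passed at a Benjamini-Hochberg adjusted p of 0.05 (26.9%). Footprints were higher in sgN6AMT1 on 1191 of them (12.9% of those tested) and lower on 1282 (13.9%). N6AMT1 itself had 25, 24 and 34 counts in sgCtrl replicates 1 to 3 and 10, 9 and 8 in the sgN6AMT1 libraries. The log2 fold change was -1.51 (SE 0.31, adjusted p = 6.69e-05, edgeR). The guide is expected to disrupt the coding sequence rather than remove the RNA, so that these footprints are a partial check of the labels.

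**Figure D1:**
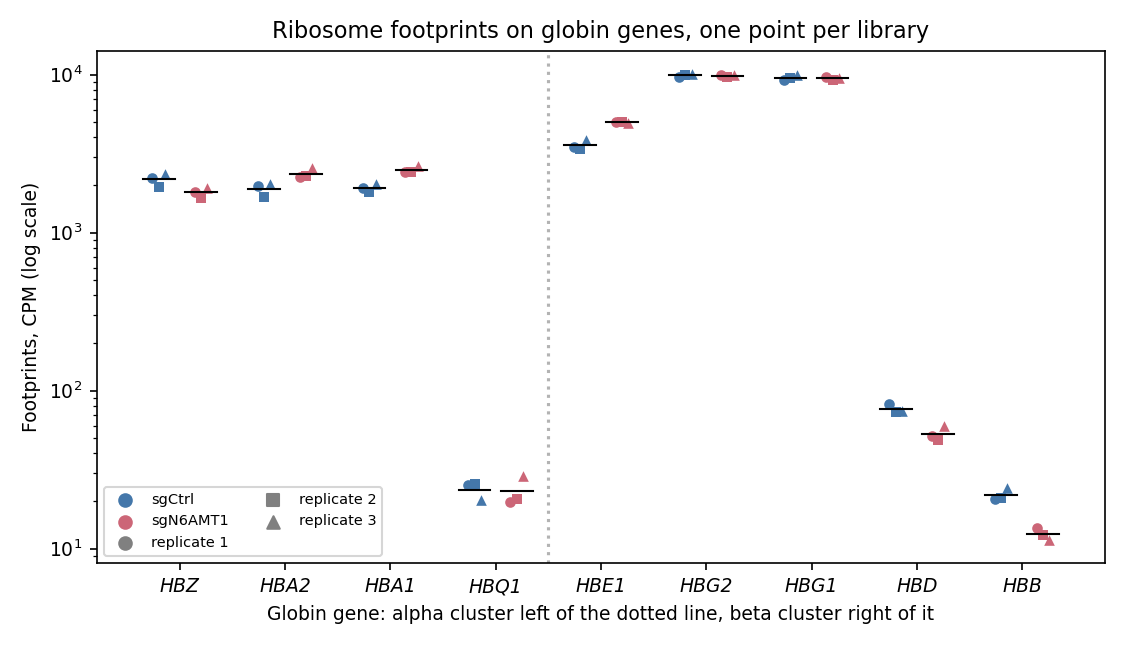
Footprints in CPM (log scale) on the 9 globin genes with counts, with 1 point per library, blue for sgCtrl and red for sgN6AMT1, and a black line at each group mean. HBG1 and HBG2 have group means of 9483 to 9920, HBE1, HBA1 and HBA2 are higher and HBZ, HBD and HBB lower in sgN6AMT1, and the HBQ1 groups overlap. HBM, at 0 in every library, is not drawn.

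Levels of different genes can be set against each other only per length, as CPM per kb of CDS. In sgCtrl libraries the order was HBG2 (22342 ± 419), HBG1 (21515 ± 692), HBE1 (8034 ± 522), HBZ (5060 ± 496), HBA1 (4463 ± 244), HBA2 (4407 ± 415), HBD (172 ± 11.8), HBQ1 (55.0 ± 6.88) and HBB (49.4 ± 4.38), in CPM per kb (SD, n = 3 each). The SD ranges of the neighbours HBG2 and HBG1, HBZ and HBA1, HBA1 and HBA2, and HBQ1 and HBB met, as did those of HBZ and HBA2. In sgN6AMT1 libraries the order in CPM per kb was HBG2 (22186 ± 369), HBG1 (21357 ± 388), HBE1 (11208 ± 119), HBA1 (5772 ± 301), HBA2 (5490 ± 398), HBZ (4185 ± 313), HBD (120.3 ± 12.7), HBQ1 (53.8 ± 11.6) and HBB (27.8 ± 2.52). As single rows, HBZ stood above HBA1 and HBA2 per kb in each sgCtrl library and below both in each sgN6AMT1 library. Reads of the identical alpha copies are split between 2 rows, so these orders rank single rows and not chains. Summed, HBA1 + HBA2 exceeded HBZ in every library, by a ratio of 1.71 to 1.81 in sgCtrl and 2.57 to 2.82 in sgN6AMT1. Their summed CPM in sgCtrl (3805 ± 278) was also not below that of HBE1 (3567 ± 232). Among all tested genes, ranked by mean CPM without regard to length, HBG2 and HBG1 held places 2 and 3 and HBE1 place 9. When the copies were summed, HBG1 + HBG2 held place 1 and HBA1 + HBA2 place 8.

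Of the 9 members tested one by one, 3 were higher (12.9% of all tested genes were), 3 lower (13.9%) and 3 did not pass. With the copies summed, of 7 features 2 were higher (13% of all tested were), 3 lower (13.9%) and 2 did not pass. The CPM of the groups did not overlap for 6 of the 9 single rows, against 37.5% of all tested genes, nor for 5 of the 7 features with the copies summed, against 37.6%. The median log2 fold change over all tested genes was 0.01 and the median absolute change of those called was 0.44, so the globins that passed moved by amounts common in this comparison, with HBB at the far end (5.35% of tested genes had a larger absolute log2 fold change).

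In the alpha cluster, HBZ encodes the embryonic zeta chain. Its CPM was 2216, 1939 and 2357 in sgCtrl replicates 1 to 3 and 1807, 1656 and 1923 in sgN6AMT1. Every sgN6AMT1 library lay below every sgCtrl library, although sgCtrl replicate 2 exceeded sgN6AMT1 replicate 3 by little. The mean was 2171 ± 213 against 1795 ± 134 (SD, n = 3 each), or by log2 fold change -0.27 (SE 0.052, adjusted p = 5.85e-05, edgeR). The call was lost with limma-voom (log2 fold change -0.26, adjusted p = 0.126).

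HBA2 and HBA1 encode the same alpha chain. Summed, their CPM was 3876, 3499 and 4040 in sgCtrl and 4642, 4675 and 5177 in sgN6AMT1. All 3 sgN6AMT1 libraries stood above all 3 sgCtrl libraries. The mean rose from 3805 ± 278 to 4831 ± 300 (SD, n = 3 each), a fold of 1.27 (95% interval 1.20 to 1.35) and a log2 fold change of 0.34 (SE 0.043, adjusted p = 3.28e-10, edgeR). With limma-voom the SE of the sum was wider (0.073) and it still passed (adjusted p = 0.0229). Taken singly, the log2 fold change was 0.32 for HBA2 (SE 0.050) and 0.37 for HBA1 (SE 0.044).

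HBQ1, which encodes the theta chain, was counted 50, 74 and 41 times in the sgCtrl libraries and 45, 48 and 53 times in sgN6AMT1. In CPM the mean was 23.6 ± 2.95 and 23.1 ± 4.96 (SD, n = 3 each), the groups overlapped, and the log2 fold change of -0.07 (SE 0.18) did not pass in edgeR (adjusted p = 0.826). HBM, which encodes the mu chain, had 0 counts in all 6 libraries, and the limit that a count of 0 allows (3 counts) was 1.01 to 1.65 CPM of the library total, which covers counting error only. Whether any HBM is made below that level was not detectable at this depth.

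In the beta cluster, HBE1 encodes the embryonic epsilon chain. Its CPM was 3479, 3392 and 3830 in sgCtrl and 5028, 4980 and 4922 in sgN6AMT1. The sgN6AMT1 libraries were close to each other and all above the highest sgCtrl library. The mean rose from 3567 ± 232 to 4977 ± 52.9 (SD, n = 3 each), or by log2 fold change 0.48 (SE 0.041, adjusted p = 1.46e-17, edgeR).

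HBG1 and HBG2 encode the fetal gamma chains. Summed, their CPM was 18999, 19455 and 19961 in sgCtrl and 19555, 18947 and 19500 in sgN6AMT1. The groups overlapped, with sgN6AMT1 replicate 2 lowest and sgCtrl replicate 3 highest. The mean was 19472 ± 481 against 19334 ± 336 (SD, n = 3 each), or by log2 fold change -0.01 (95% interval -0.08 to 0.06, adjusted p = 0.873, edgeR), which corresponds to a fold between 0.945 and 1.04. The sign and the call depended on the scaling: the log2 fold change was 0.04 with total counts in place of TMM, and -0.14 (adjusted p = 2.25e-05, edgeR) once trends of the counts on CDS length and GC content had been removed, an alternative added after the data were seen.

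HBD and HBB encode the adult delta and beta chains and were the least abundant detected beta-like genes. HBD was counted 164, 211 and 150 times in the sgCtrl libraries and 118, 113 and 110 times in sgN6AMT1, which is 82.4, 72.7 and 73.9 CPM against 51.7, 48.8 and 59.7 CPM. The groups did not overlap. The mean fell from 76.4 ± 5.25 to 53.4 ± 5.64 CPM (SD, n = 3 each), or by log2 fold change -0.52 (SE 0.11, adjusted p = 0.000171, edgeR).

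HBB was counted 41, 61 and 49 times in the sgCtrl libraries and 31, 28 and 21 times in sgN6AMT1, which is 20.6, 21.0 and 24.2 CPM against 13.6, 12.1 and 11.4 CPM. Again the groups did not overlap. The mean fell from 21.9 ± 1.94 to 12.4 ± 1.12 CPM (SD, n = 3 each), or by log2 fold change -0.81 (SE 0.20, adjusted p = 0.00114, edgeR). Because both genes share sequence, they were also summed, an alternative added after the data were seen, and the sum had a log2 fold change of -0.58 (adjusted p = 3.98e-06, edgeR). Of the 30-base windows of HBB, 11.3% lie within 2 mismatches of the far more abundant HBE1, HBG1 or HBG2 (9.88% for HBD), and the part that misassigned reads play in these low counts was not tested.

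**Figure D2:**
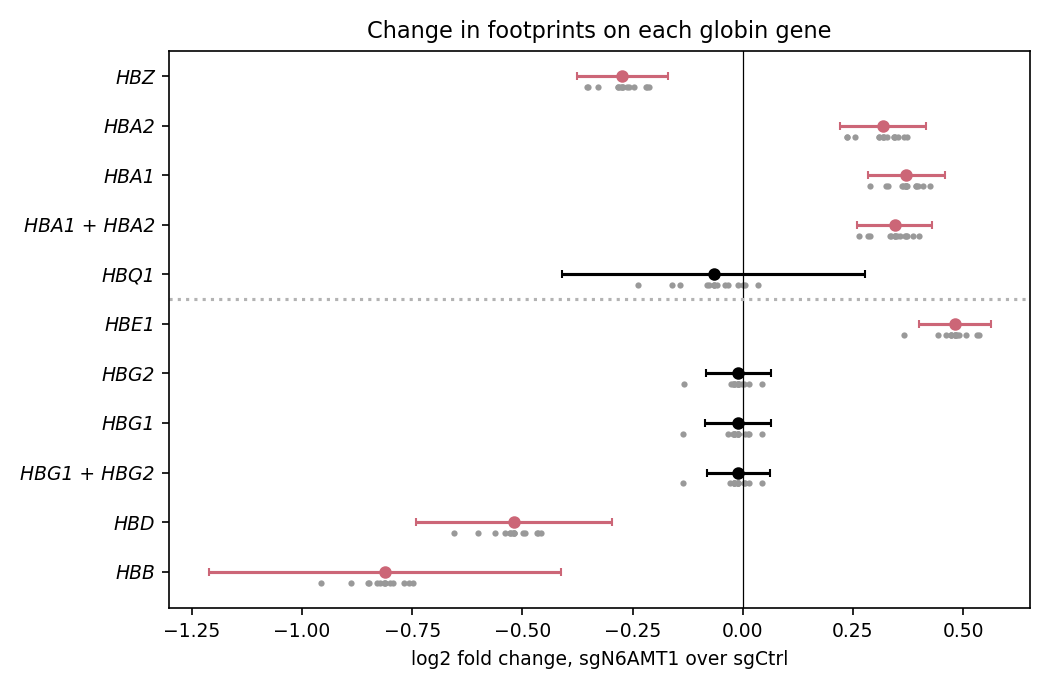
Log2 fold change of sgN6AMT1 over sgCtrl for each tested globin and for the summed copies, with 95% intervals. Red marks an adjusted p under 0.05 in edgeR, and the small grey points below each are the values under the alternative settings. HBE1 and HBA1 + HBA2 lie right of 0 and HBZ, HBD and HBB left of it under every setting drawn, and the grey points of HBG1 + HBG2 fall on both sides of 0.

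Ratios of counts within a library do not depend on the scaling between libraries. The ratio of HBA1 + HBA2 to HBZ was 1.75, 1.81 and 1.71 in sgCtrl and 2.57, 2.82 and 2.69 in sgN6AMT1. HBZ accordingly took 36.1% ± 0.63 of the alpha-like counts in sgCtrl and 27.0% ± 0.94 in sgN6AMT1 (SD, n = 3 each), with no overlap. The ratio of HBG1 + HBG2 to HBE1 was 5.46, 5.74 and 5.21 in sgCtrl and 3.89, 3.81 and 3.96 in sgN6AMT1. HBE1 took 15.41% ± 0.62 of the beta-like counts in sgCtrl and 20.4% ± 0.33 in sgN6AMT1, again with no overlap. The ratio of HBZ to HBE1, the 2 embryonic chains, was 0.608 ± 0.033 in sgCtrl and 0.361 ± 0.029 in sgN6AMT1. These ratios restate the changes above on another scale, and with 3 libraries a group no exact test of a single ratio can fall below p = 0.1.

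**Figure D3:**
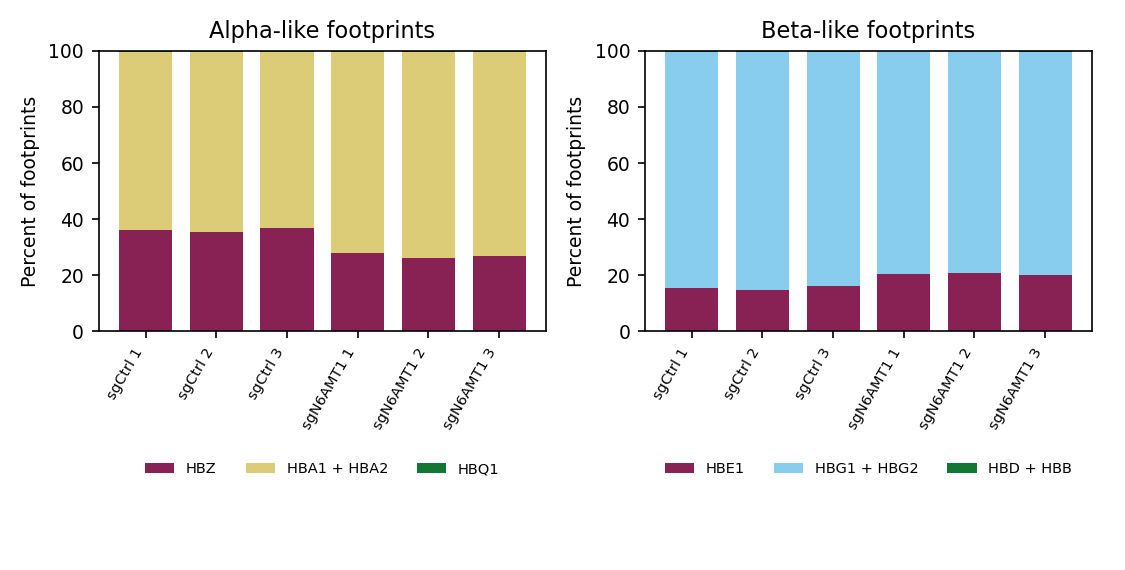
Share of each gene in the alpha-like (left) and beta-like (right) footprint counts of each library, in percent. HBZ falls from about 36.1% to 27.0% of the alpha-like counts and HBE1 rises from about 15.41% to 20.4% of the beta-like counts, while HBQ1 and HBD + HBB are too small to be seen.

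Within all globin counts, HBG1 + HBG2 went from 66.9% ± 1.43 in sgCtrl to 62.3% ± 0.60 in sgN6AMT1, HBE1 from 12.2% ± 0.36 to 16.0% ± 0.43 and HBA1 + HBA2 from 13.1% ± 0.64 to 15.6% ± 0.74 (SD, n = 3 each). HBZ + HBE1 together, the embryonic chains, went from 19.7% ± 0.84 to 21.8% ± 0.16. None of these 4 shares overlapped between groups. Alpha-like over beta-like counts came to 0.271, 0.238 and 0.269 in sgCtrl and 0.262, 0.265 and 0.291 in sgN6AMT1, and these groups overlapped. The ratio of HBD to HBB also overlapped, at 3.51 ± 0.47 and 4.36 ± 0.77.

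**Figure D4:**
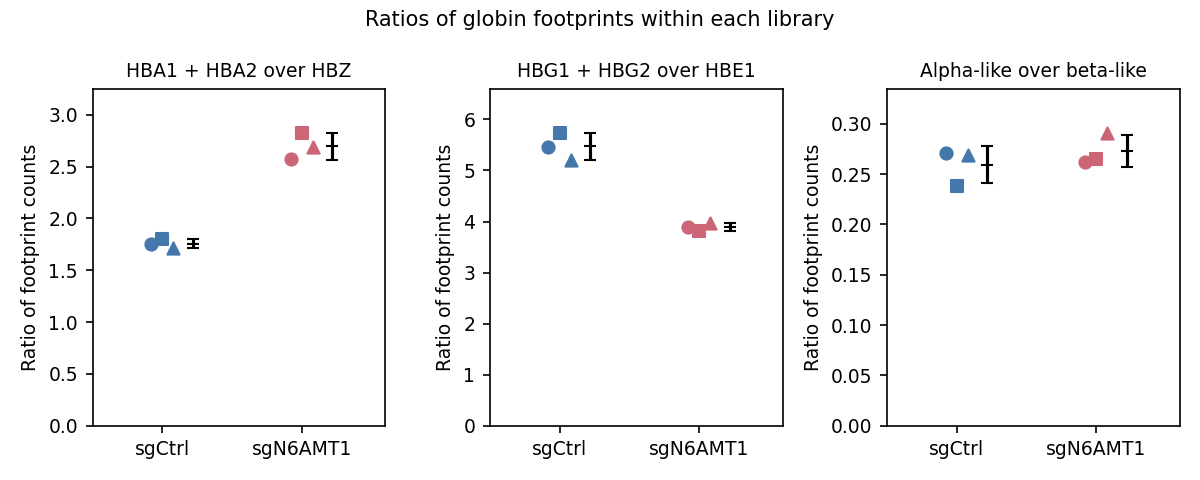
Ratios of footprint counts within each library, with 1 point per library and the group mean ± SD beside them. HBA1 + HBA2 over HBZ is higher and HBG1 + HBG2 over HBE1 lower in every sgN6AMT1 library, and alpha-like over beta-like overlaps between the groups.

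The genes whose CPM ran most like those of the leading globins were found by the root-mean-square (RMS) difference of log2 CPM, each gene centred on its own mean, over the 6 libraries and 3654 genes of at least 50 CPM. For HBA1 + HBA2 they were SLC4A1AP (RMS difference 0.026 log2 units), OST4 (0.041), CORO1B (0.043), PPDPF (0.047) and COX8A (0.047). For HBG1 + HBG2 they were MCM6 (0.0092), SRRT (0.013), PSMA7 (0.020), WBSCR22 (0.021) and GARS (0.022). All 6 libraries are shared by these comparisons, and nothing on shared function follows from them.

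Globin transcription depends on a set of erythroid factors and on repressors that set the switch between chains. Of 49 listed transcription and switching factors, 47 had enough counts, 5 were higher (10.6%, against 12.9% of all tested genes) and 12 lower (25.5%, against 13.9%), with a median log2 fold change of -0.12 against 0.01 over all genes. GATA1, the central erythroid transcription factor, fell from 310 ± 11.8 to 253 ± 15.9 CPM (log2 fold change -0.29, adjusted p = 0.000135, edgeR). KLF1, which activates HBB, fell by 0.37 on the log2 scale (adjusted p = 0.00094, edgeR), and MYB, a progenitor factor, fell by 0.38 (adjusted p = 5.88e-05, edgeR).

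LMO2, a bridging partner of GATA1 and TAL1, fell from 41.1 ± 1.79 to 15.3 ± 3.91 CPM (log2 fold change -1.44, adjusted p = 1.39e-11, edgeR). TAL1 and its relative LYL1 were higher, with log2 fold changes of 0.48 and 0.41. CBFA2T3, a corepressor in the same complex, had a log2 fold change of -0.68, and IGF2BP3, an RNA-binding protein, one of -0.54. IKZF1, also at -0.54, lost its call with DESeq2 (adjusted p = 0.0695) and without sgN6AMT1 replicate 1 (adjusted p = 0.0521, edgeR). SPI1 (PU.1), a myeloid factor that opposes GATA1, rose from 10.1 ± 0.63 to 27.5 ± 2.17 CPM (log2 fold change 1.44, adjusted p = 6.13e-09, edgeR).

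Among the repressors of fetal globin, BCL11A had no footprint in any library and ZBTB7A, with a log2 fold change of -0.25, did not pass (adjusted p = 0.288, edgeR). Of the chromatin factors on the same list, DNMT1 (log2 fold change -0.32), HDAC2 (-0.28) and KDM1A (-0.23) passed as lower. GATAD2B (0.34) passed as higher, and others, such as CHD4, HDAC1 and MTA2, did not pass. NR2C2, one of the orphan receptors that bind the embryonic and fetal promoters, had a log2 fold change of 0.60 and passed narrowly (adjusted p = 0.0409, edgeR), and it lost the call in 9 of 14 alternatives. HBS1L, next to MYB, had a log2 fold change of -0.25 (adjusted p = 0.00662, edgeR) and lost its call with DESeq2 (adjusted p = 0.0598) and without sgN6AMT1 replicate 2 (adjusted p = 0.113, edgeR).

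Globin chains need haem, a chaperone and a kinase that matches translation to haem. Of 29 listed genes for these tasks 27 were tested, 6 were higher (22.2%, against 12.9% of all tested genes) and 6 lower (22.2%, against 13.9%), with a median log2 fold change of -0.01. ALAS2, the erythroid first enzyme of haem synthesis, was counted 97, 154 and 89 times in the sgCtrl libraries and 383, 361 and 272 times in sgN6AMT1. Its level rose from 48.6 ± 4.61 to 157 ± 10.2 CPM (log2 fold change 1.68, adjusted p = 1.59e-27, edgeR), with all sgN6AMT1 libraries above all sgCtrl libraries. ALAS1, the housekeeping form, also rose (log2 fold change 0.49). Later enzymes fell: UROD had a log2 fold change of -0.33 and FECH, which inserts the iron, one of -0.58.

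SLC25A39, a mitochondrial carrier needed for haem synthesis, had a log2 fold change of 0.50 (adjusted p = 0.00125, edgeR), a call lost with DESeq2 (adjusted p = 0.0546). EIF2AK1, the haem-regulated kinase that restrains globin translation, rose by a log2 fold change of 0.45 (adjusted p = 4.65e-05, edgeR). TFRC, the transferrin receptor that brings in iron, fell by 0.33 on the log2 scale. AHSP, the chaperone of free alpha chains, went from 20.5 ± 1.40 to 15.3 ± 2.91 CPM and did not pass (log2 fold change -0.39, adjusted p = 0.134, edgeR), although it did once the length and GC trends had been removed (log2 fold change -0.53, adjusted p = 0.0285, edgeR).

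The chromosomal neighbours of the clusters are read against the 26.9% of all tested genes that passed. Of 16 listed neighbours of the alpha cluster (16p13.3), 11 were tested and 1 passed (9.09%), LUC7L, a splicing factor gene beside the cluster (log2 fold change -0.88, adjusted p = 4.15e-08, edgeR). NPRL3, whose introns hold the alpha cluster's enhancers, was at 71.0 ± 3.08 CPM in sgCtrl and 71.4 ± 9.78 in sgN6AMT1 (adjusted p = 0.989, edgeR). Of 25 listed neighbours of the beta cluster, 10 were tested and 1 passed (10%), TRIM6, a ubiquitin ligase gene (log2 fold change 1.57, adjusted p = 1.64e-06, edgeR). Of the 4 globin genes outside both clusters, MB (myoglobin) and NGB (neuroglobin) had no footprint and CYGB and ADGB had too few to be tested.

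**Figure D5:**
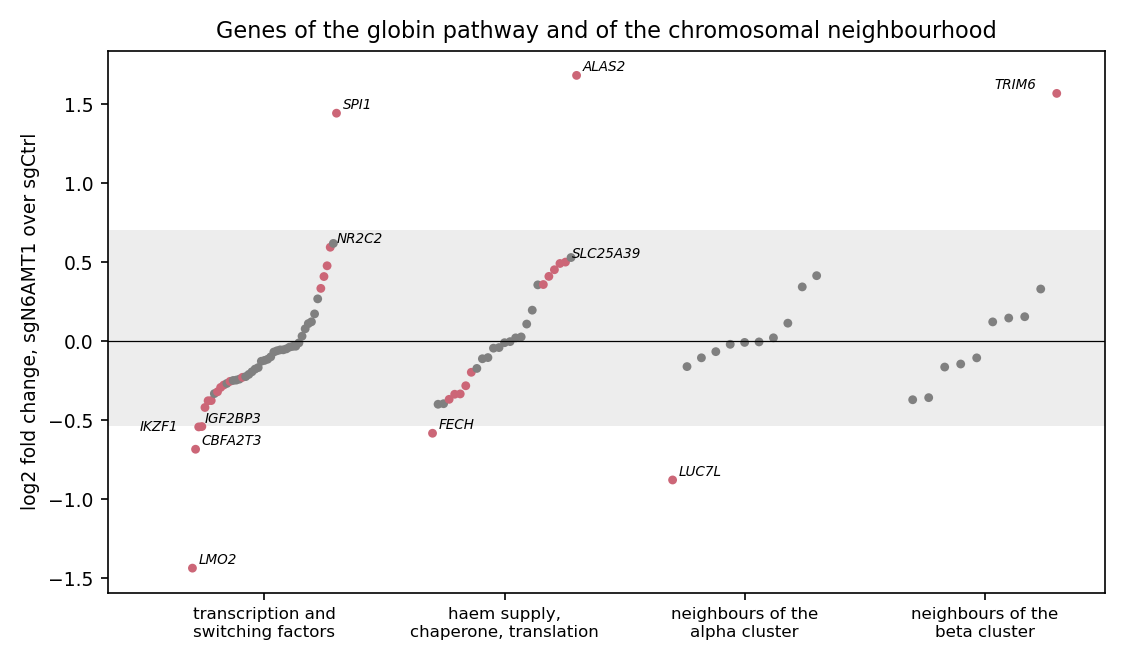
Log2 fold change of sgN6AMT1 over sgCtrl for each tested gene of the 4 lists, with red for an adjusted p under 0.05 in edgeR, grey otherwise, and the grey band holding the central 90% of all tested genes (-0.53 to 0.71). SPI1, ALAS2 and TRIM6 lie above the band and LMO2, CBFA2T3, IGF2BP3, IKZF1, FECH and LUC7L below it.

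Markers of cell types were measured in the same libraries. Of 30 erythroid markers 28 were tested, 5 were higher (17.9%, against 12.9% of all tested genes), 8 lower (28.6%, against 13.9%) and 15 did not pass, with a median log2 fold change of -0.01. Their summed level was 5809 to 5915 CPM in sgCtrl and 5070 to 5339 in sgN6AMT1, to which TFRC alone contributed 1952 ± 63.0 and 1551 ± 52.2 CPM. The red cell pyruvate kinase PKLR fell (log2 fold change -1.20), and the blood group genes KEL (0.81) and GYPC (0.64) rose. Of 19 megakaryocyte and platelet markers 7 were tested and 5 were lower (71.4%, against 13.9% of all tested genes), with a summed level of 218 to 234 CPM in sgCtrl and 106 to 129 in sgN6AMT1, and 8 of the 19, PF4 among them, were at 0. GP1BB alone contributed 141 ± 9.83 CPM to that sum in sgCtrl and 70.1 ± 13.9 in sgN6AMT1.

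Of 19 monocyte and granulocyte markers 4 were tested, too few to describe the list by a count. LYZ (log2 fold change 0.90), CD33 (1.86) and CD68 (2.25) were higher, and FCGR1A, at 0.831 ± 0.765 CPM in sgCtrl and 20.3 ± 3.07 in sgN6AMT1, could be tested only through its sgN6AMT1 counts. The 19 had a summed level of 68.8 to 79.3 CPM in sgCtrl and 199 to 213 in sgN6AMT1, while CD14, ELANE and CTSG were at 0. LYZ alone contributed 54.4 ± 5.47 CPM to that sum in sgCtrl and 103 ± 5.60 in sgN6AMT1. Of 12 lymphocyte markers 1 was tested, and it did not pass. The summed level of the lymphocyte markers was 35.7 to 43.4 CPM in sgCtrl and 30.2 to 33.1 in sgN6AMT1. Most of it came from the 1 tested gene, CD3D, at 35.7 ± 4.45 CPM in sgCtrl and 29.2 ± 2.43 in sgN6AMT1. The part of these marker shifts in the globin changes was not tested.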

How the data were processed

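The deposited file held whole-number footprint counts per canonical transcript, not normalized, which the authors made for each of the 6 libraries. Per the study's methods and the submitters' processing notes, adapters were trimmed with cutadapt, reads were mapped to GRCh38 (Ensembl release 84) without rRNA and tRNA and then to canonical transcripts with Bowtie2, and predicted P-sites were summed over each CDS. Counts over a gene annotation were also made, and which of the 2 kinds the table holds is not stated. With default mapping a read that fits several copies is placed on 1 of them, which bears on HBA1, HBA2, HBG1 and HBG2.

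From the counts, transcripts were filtered with filterByExpr (minimum 10 counts), which left 9202 tested, and the 10128 removed hold 0.465% of counts. Libraries were scaled by TMM, and sgN6AMT1 was compared with sgCtrl by robust quasi-likelihood F tests in edgeR 4.0.16 (R 4.3.3) over all tested genes, with Benjamini-Hochberg adjustment and a threshold of 0.05. The fit was run with single rows and with the copies summed. Only the summed copies were taken from the second fit. SE is the absolute log2 fold change over the square root of F, and 95% intervals use the normal distribution. The common biological variation was 4.36%. The fit was tested on simulated counts with 9154 genes: it recovered 79% of genes changed 1.5-fold and 96% of those changed 2-fold, and 9 of 184 calls were false. Every simulated gene was given the same dispersion, whereas real genes differ in it. The simulation thus checks that the fit runs properly, and its rates do not carry over to the calls reported here. Figures were drawn with matplotlib 3.10.9. Sequences and coordinates came from GENCODE 44: 17687 transcripts matched by identifier, 1450 through their symbol and 193 were not placed.

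Depth was 1821356 to 2969736 counts per library. PCR reads without molecular identifiers are not independent molecules, so intervals and floors on counts cover counting error only. P-values and SE of edgeR rest on the spread between these 3 libraries a group, moderated by the spread of all tested genes. They are therefore not the spread of a single gene alone. For HBZ the SE was 0.052 in edgeR, 0.103 in DESeq2 and 0.098 in limma-voom. For HBA1 + HBA2 it was 0.043, 0.055 and 0.073, and for HBE1 it was 0.041, 0.046 and 0.029.

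The members and all lists were chosen with earlier results of these data known. Named from each list were AHSP, GATA1, KLF1, BCL11A, ZBTB7A, MYB, NPRL3, LUC7L, ALAS2, EIF2AK1 and HBS1L whatever their values, and every gene past the threshold whose log2 fold change was 0.5 or more in size. TAL1, LYL1, ALAS1, UROD and TFRC were named after their values were seen. Some genes of the lists are counted but not reported here by name. Alternatives were DESeq2 1.42.0, which the study's methods name, limma-voom (limma 3.58.1), other size factors, no scaling factors, scaling without globins, other filters, a replicate block, leaving out each library, and, added after the data were seen, trends on CDS length and GC content removed by loess and HBB summed with HBD.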

Additional observations from a re-analysis of the deposited data

How the results depend on the processing

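Of 166 values of the members and sums under alternative settings, 148 kept their direction and their side of the threshold, 1 lost its call, 3 gained one and 14 changed sign, all of the latter in HBG1, HBG2, their sum and HBQ1, none of which passed with the changed sign. The 1 lost call was HBZ with limma-voom (log2 fold change -0.26, adjusted p = 0.126), and HBZ passed narrowly with DESeq2 (adjusted p = 0.0485). HBB was not tested under the filter of at least 50 counts on average. With trends on CDS length and GC content removed, 5 members were lower in place of 3, since HBG1 and HBG2 joined them, and HBG1 + HBG2 had a log2 fold change of -0.14 (adjusted p = 2.25e-05). The cause was not tested. With total counts in place of TMM the log2 fold change was 0.0441 for HBG1 + HBG2, 0.0444 for HBG2, 0.0439 for HBG1 and 0.0512 for NPRL3, and with only genes of at least 50 counts on average it was 0.0147, 0.0151, 0.0146 and 0.0225 for the same 4. Leaving out 1 library at a time gave -0.0299 to 0.00464 for HBG1 + HBG2, -0.0272 to 0.00342 for HBG2, -0.0331 to 0.0113 for HBG1, -0.237 to 0.0346 for HBQ1 and -0.112 to 0.0687 for NPRL3. The switching factors called higher numbered 3 with DESeq2 and 3 to 5 with 1 library left out, the 3 being without sgCtrl replicate 1 or without sgN6AMT1 replicate 2. HBZ over HBG1 + HBG2 + HBE1 differed between groups by -0.0203, against 0.0135 for alpha-like over beta-like, which was 0.00298 without sgCtrl replicate 2, 0.00439 without sgN6AMT1 replicate 3 and at most 0.0194 without another library. Over all genes, DESeq2 called 1329 of 10716 genes (12.4%), the other settings 1859 to 2712, and the numbers with 1 library left out were 1859 to 2322.

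No pairing by the shared replicate numbers was seen, and the samples were not treated as pairs. Deviations of same-numbered libraries from their group means correlated at -0.139, 0.0351 and 0.00326 over 5874 genes. Not every library correlated best with its own number. With deviations centred within groups of 3 libraries, such weak correlations cannot exclude that same-numbered libraries were handled together. A replicate block moved the count of genes called from 2473 to 2390 and left 3 members higher and 3 lower, with a log2 fold change of 0.35 for HBA1 + HBA2 (adjusted p = 8.22e-13, edgeR) and -0.01 for HBG1 + HBG2 (adjusted p = 0.884, edgeR). Depth limits HBB, HBQ1 and HBM, whose counts were at most 74 per library.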
